A study of Rattus norvegicus with 47 samples.

Results

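Neutrophil granule proteins were followed in blood mRNA over the first day post MCA occlusion as 9 genes in 2 classes, chosen by gene symbol from the 20935 symbols that the array table carries. The primary (azurophil) granule class held 3 genes. These were Mpo (myeloperoxidase, which makes hypochlorous acid from hydrogen peroxide), the serine proteases Elane (neutrophil elastase) and Ctsg (cathepsin G). The specific and gelatinase granule class held 6 genes. These were Ltf (lactoferrin, which binds iron), Camp (cathelicidin, an antimicrobial peptide precursor), Ngp (neutrophilic granule protein, a cathelicidin relative), Lcn2 (lipocalin 2, which binds bacterial siderophores), Mmp8 (neutrophil collagenase) and Pglyrp1 (which binds bacterial peptidoglycan). All 9 had a probe set, and each had exactly 1, so no choice between probe sets was needed.

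The blood came from 8 male spontaneously hypertensive rats (SHR) aged 16 weeks, in which the middle cerebral artery was occluded for a time with a coated thread under isoflurane. The thread was withdrawn under a further anaesthesia after the 1 hour and before the 2 hour sample, so the 1 hour blood was taken during occlusion and the later blood after reperfusion. Each rat was sampled at 0 hours (before anaesthesia and surgery) and at 1, 2, 3, 6 and 24 hours post MCA occlusion, which gave 47 arrays: 8 per time point, and 7 at 6 hours, where rat 3 had no sample. Blood at 0 to 6 hours was taken from the tail vein and at 24 hours from the heart after an isoflurane overdose, so sampling site and time cannot be told apart in the 24 hour comparison. No sham-operated or unoperated rats were included, so occlusion, reperfusion (from 2 hours on), anaesthesia, surgery, repeated bleeding and time of day cannot be told apart in any change from 0 hours. RNA was from the whole pellet of blood cells, a mixture of white cells, red cells and platelets. The values are the authors' mean and the authors' SD over the arrays of a time point, on the log2 scale of RMA (a method of background correction, quantile normalization and summary over probes). A difference of 1 on this scale is 1 doubling. The columns of single arrays are named by a running number that no label ties to a rat or time point, and they were not matched by their order, so values per rat are not given and whether the groups overlap in single rats was not analysed here.

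Neutrophils carry their toxic and antimicrobial proteins in granules that form in sequence while the cell matures in the bone marrow. Primary granule proteins are made first, at the promyelocyte stage, specific granule proteins next, in myelocytes and metamyelocytes, and gelatinase granule proteins last, in band cells and segmented neutrophils. The mRNA of each class largely falls away once its stage has passed, whereas the proteins stay stored, so blood mRNA of these genes reports on transcripts that are still present and not on granule content. C/EBP factors, C/EBP epsilon above all, are known to drive the specific granule genes, and PU.1 and C/EBP alpha the primary granule genes.

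The bases just before the gene start are shown for 4 members with large changes and for Ltf and Ctsg, which moved little or not at all, so that the starts of genes with unlike time courses can be read side by side. Each line gives the 150 bases before the annotated gene, 5′ to 3′ on the gene's own strand, from RefSeq on assembly GRCr8, and capitals mark matches to the C/EBP-type pattern TTNNGNAA or its reverse complement. The windows are Camp at chr8:118721999-118722148, minus strand; Ngp at chr8:119272455-119272604, plus strand; Lcn2 at chr3:36081852-36082001, minus strand; Mmp8 at chr8:13008723-13008872, plus strand; Ltf at chr8:119878194-119878343, plus strand; and Ctsg at chr15:33907597-33907746, minus strand.
Camp: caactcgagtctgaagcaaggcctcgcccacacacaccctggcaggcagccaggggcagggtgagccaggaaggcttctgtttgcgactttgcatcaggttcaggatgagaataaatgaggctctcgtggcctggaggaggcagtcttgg
Ngp: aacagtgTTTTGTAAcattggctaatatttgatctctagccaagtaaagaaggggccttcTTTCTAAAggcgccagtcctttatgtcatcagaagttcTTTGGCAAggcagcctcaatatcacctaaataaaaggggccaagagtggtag
Lcn2: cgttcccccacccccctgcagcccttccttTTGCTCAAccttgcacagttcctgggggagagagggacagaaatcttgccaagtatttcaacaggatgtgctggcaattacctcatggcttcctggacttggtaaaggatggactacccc
Mmp8: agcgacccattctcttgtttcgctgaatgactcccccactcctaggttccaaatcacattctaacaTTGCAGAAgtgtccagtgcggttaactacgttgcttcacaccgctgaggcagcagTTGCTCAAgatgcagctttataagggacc
Ltf: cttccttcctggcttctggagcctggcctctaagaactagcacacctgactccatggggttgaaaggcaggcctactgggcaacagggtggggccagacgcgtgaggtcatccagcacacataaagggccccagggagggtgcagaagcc
Ctsg: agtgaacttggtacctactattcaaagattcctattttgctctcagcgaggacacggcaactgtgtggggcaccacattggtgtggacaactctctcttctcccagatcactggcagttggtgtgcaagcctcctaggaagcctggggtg

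The pattern was found in Ngp (3 matches), Mmp8 (2 matches) and Lcn2 (1 match), and these letters were not in the windows of Camp, Pglyrp1, Ltf or Ctsg. Windows of the same length before all 22044 genes with a complete one held it in 24.5%. The PU.1 core GAGGAA occurred once, in Pglyrp1 as its reverse complement TTCCTC, against 14.2% of all windows. TATAAA occurred once, in Mmp8 as its reverse complement TTTATA, 13 bases before the gene start, against 8.88%. The NF-kB pattern GGGNNTTTCC and the glucocorticoid receptor pattern GNACANNNTGTNC were in none of the 7 windows, against 0.789% and 0.227% of all. All patterns were searched on both strands, and a match is a description of letters, not of binding. Of the 9 members, 8 were in the sequence table and 7 had a full window: the window of Mpo ran into the annotated gene, and Elane had no entry.

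Of the specific and gelatinase class, 5 of 6 genes (Camp, Ngp, Lcn2, Mmp8 and Pglyrp1) were higher at 1 and 2 hours, by 0.80 to 1.44 and then 1.07 to 2.11 on the log2 scale, while the change of Ltf was at most 0.06 at any time and was never called. Of the primary class, the largest change was 0.34, in Elane at 6 hours. The median change of the specific and gelatinase genes was 0.93, 1.33, 1.11, 1.14 and 0.07 at 1, 2, 3, 6 and 24 hours, that of the primary genes 0.22, 0.18, 0.17, 0.16 and 0.10, and that of all 27596 probe sets 0.05, 0.05, 0.07, 0.05 and 0.04. The specific and gelatinase median covers unlike genes, from 0.03 (Ngp) and 0.06 (Ltf) to 2.81 (Lcn2) at 6 hours. With Mmp8 and Pglyrp1 left out, its difference from the primary median at 6 hours went from 0.99 to 0.52. The difference between the classes was not tested, since both were measured on the same arrays and the genes of a class are not replicates. At 0 hours the 3 primary genes and Ltf had mean signals of 5.70 to 6.55, and the other 5 genes 7.96 to 12.21. Class and signal level can therefore not be told apart in this difference.

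**Figure D1:**
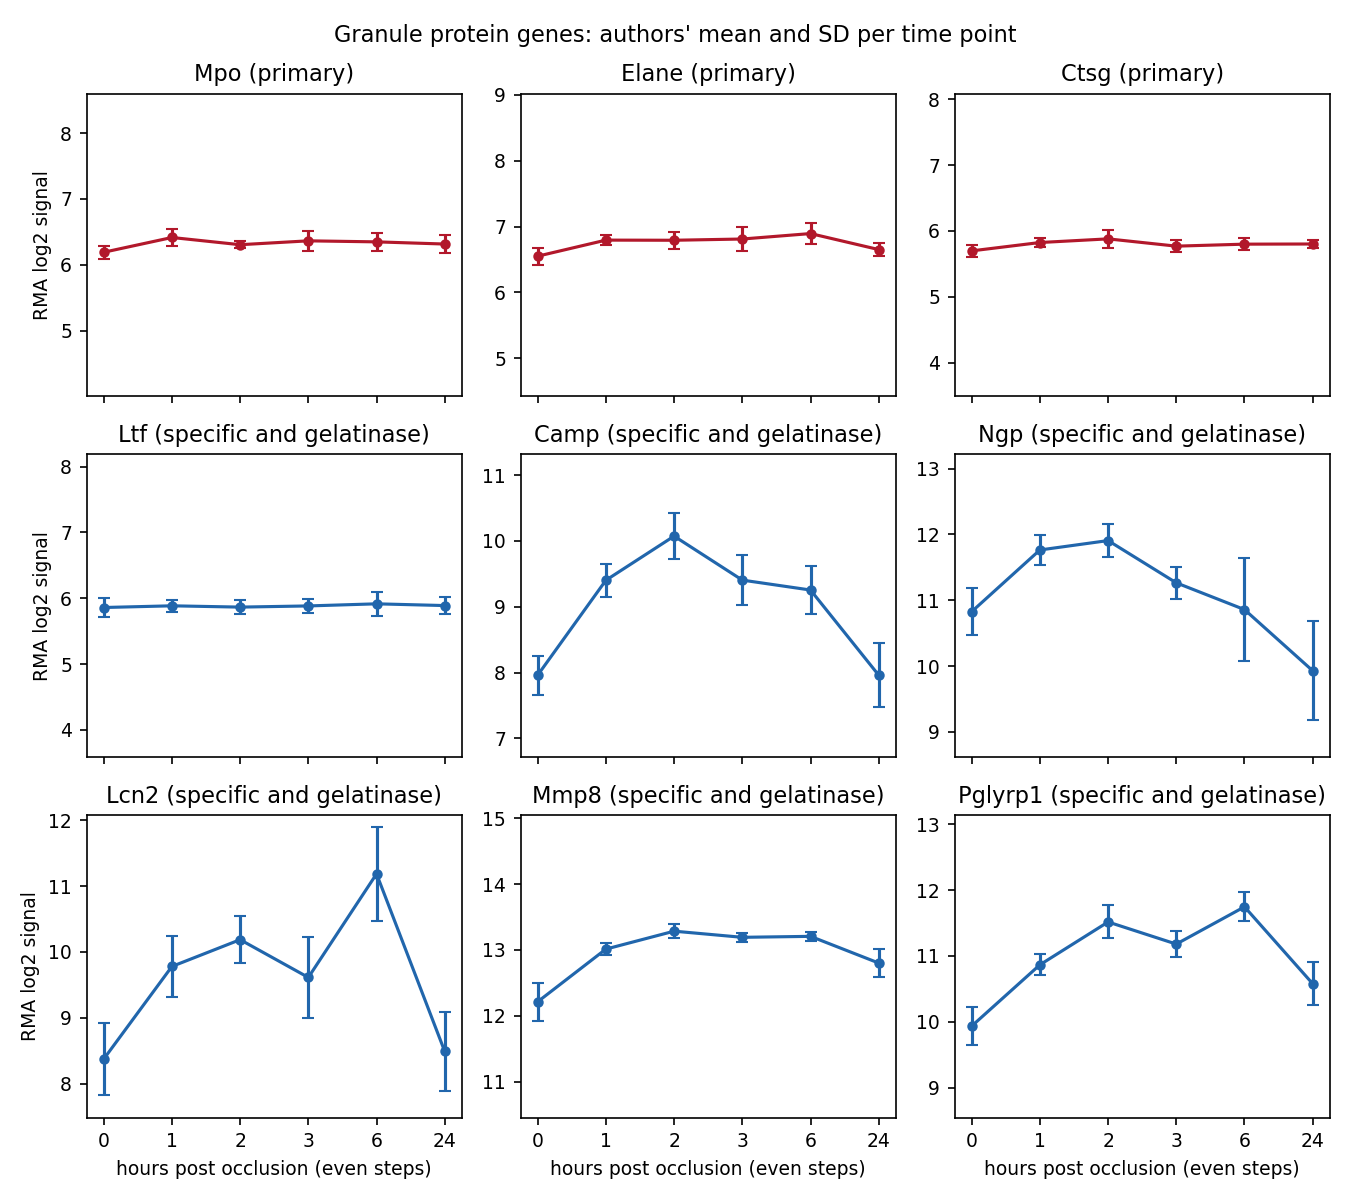
Authors' mean RMA log2 signal (points) with the authors' SD (bars) at each time point for the 9 genes, red for primary and blue for specific and gelatinase granules; time points are spaced evenly, every panel spans the same range of log2 signal, and n = 8 arrays (7 at 6 hours). Camp and Ngp were highest at 2 hours, Lcn2 and Pglyrp1 at 6 hours, and the 3 primary granule genes and Ltf stayed within 0.34 of their 0 hour mean.

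Calls in this and the following comparisons were made with limma's moderated test over all 27596 probe sets at a false discovery rate (FDR, the Benjamini-Hochberg adjusted p) under 0.05, with 95% intervals for single changes. At 1 hour, 3 of 3 primary and 5 of 6 specific and gelatinase genes were higher and none was lower, where 21.7% of all probe sets were higher and 15.4% lower. At 2 hours, 2 of 3 (Elane and Ctsg) and the same 5 of 6 were higher, against 21.7% higher and 18.6% lower among all probe sets. At 3 hours, 2 of 3 (Mpo and Elane) and 4 of 6 (Camp, Lcn2, Mmp8 and Pglyrp1) were higher, against 27.3% higher and 19.2% lower. With the means quantile normalized, Elane was the only primary gene still called at 1, 2 and 3 hours.

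At 6 hours, the same 2 primary and the same 4 specific and gelatinase genes were higher, against 22.5% and 19.3% of all probe sets higher and lower. At 24 hours, 0 of 3 primary genes were called by limma at this FDR, although 1 (Ctsg) had an unadjusted p under 0.05. Of the other class, 2 of 6 (Mmp8 and Pglyrp1) were higher and 1 (Ngp) was lower at 24 hours, against 17.4% and 13.9%. Blood mRNA comes from a mixture of cells, and more cells of a type cannot be told apart from more RNA per cell.

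**Figure D2:**
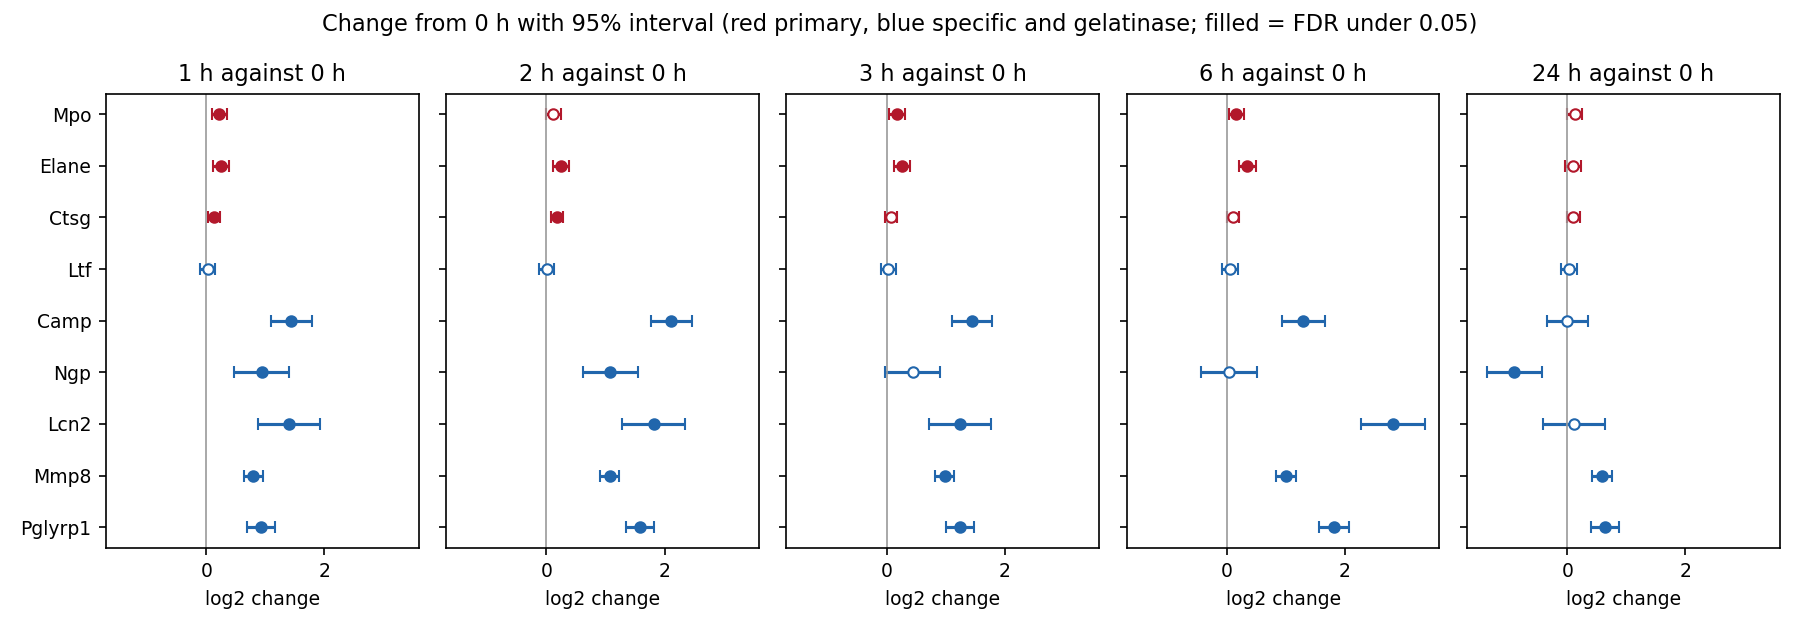
Change from 0 hours of each gene (x axis, log2 scale) with its 95% interval from limma's moderated test, 1 panel per time point, red for primary and blue for specific and gelatinase granules; filled points have an FDR under 0.05. The 5 moving specific and gelatinase genes lie to the right of the primary genes at 1 and 2 hours, and at 24 hours Ngp lies left of 0 with a change of -0.90.

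Camp, the cathelicidin gene of the rat, had a mean signal of 7.96 ± 0.30 at 0 hours, 9.40 ± 0.25 at 1 hour, 10.07 ± 0.35 at 2 hours, 9.40 ± 0.39 at 3 hours, 9.25 ± 0.36 at 6 hours and 7.96 ± 0.49 at 24 hours (mean ± SD, n = 8, and 7 at 6 hours, here and for the genes that follow). Its probe set covers chr8:117283070-117284879 on the minus strand (rn5). The peak at 2 hours was a change of 2.11 (4.33-fold, 95% interval 1.77 to 2.46, FDR 3.06e-14). Camp then fell by 0.67 from 2 to 3 hours (FDR 0.0162), and no other of the 9 genes was called in that step with the SDs of all time points. At 24 hours the change was -0.00068, with an interval of -0.35 to 0.35, so the mean was back at its 0 hour value within that margin.

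Ngp, which has a cathelicidin-like domain, ran from 10.83 ± 0.36 at 0 hours through 11.76 ± 0.23, 11.91 ± 0.25, 11.26 ± 0.24 and 10.86 ± 0.79 to 9.93 ± 0.75 at 24 hours. Its probe set lies at chr8:118006041-118008813 on the plus strand (rn5). The rise was 0.94 at 1 hour (FDR 0.00131) and 1.08 at 2 hours (2.11-fold, interval 0.62 to 1.54, FDR 1.63e-04), while the 3 hour change of 0.44 had an FDR of 0.112. At 24 hours Ngp was the 1 gene of the 9 called lower, with a change of -0.90 (0.537-fold, interval -1.36 to -0.43, FDR 0.00259).

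The spread of Ngp differed between time points: the SD was 0.23 to 0.36 up to 3 hours and 0.79 and 0.75 at 6 and 24 hours. With the SDs of only the compared time points, the 3 hour rise passed the test (FDR 0.0133), as did the fall of 0.64 from 2 to 3 hours (FDR 0.00203, against 0.117 with the SDs of all time points). The fall of 0.93 from 6 to 24 hours did not pass in that setting (FDR 0.0656).

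Lcn2, a siderophore-binding protein that also serves as a marker of acute inflammation, had 2 high points. The mean was 8.37 ± 0.54 at 0 hours, 9.78 ± 0.47 at 1 hour, 10.19 ± 0.36 at 2 hours, 9.61 ± 0.61 at 3 hours, 11.19 ± 0.71 at 6 hours and 8.49 ± 0.60 at 24 hours. Its probe set lies at chr3:16763059-16766466 on the minus strand (rn5). The dip of 0.57 between 2 and 3 hours did not pass the test (FDR 0.257), whereas the rise of 1.57 from 3 to 6 hours did (2.98-fold, FDR 1.37e-04). The 6 hour change of 2.81 (7.03-fold, interval 2.27 to 3.36, FDR 5.01e-12) was the largest of all 9 genes and all times, and exceeded the 2 hour level by 1.00 (FDR 0.0102). At 24 hours 4.11% of that log2 change was left, a change of 0.12 with an interval of -0.41 to 0.64 (FDR 0.766), which does not settle whether Lcn2 was back at its start.

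Mmp8, which cleaves collagen, had a mean of 12.21 ± 0.29 at 0 hours, then 13.01 ± 0.09, 13.29 ± 0.11, 13.19 ± 0.07 and 13.21 ± 0.07 up to 6 hours and 12.80 ± 0.21 at 24 hours. Its probe set lies at chr8:5771724-5780581 on the plus strand (rn5). The largest change was 1.07 at 2 hours (2.10-fold, interval 0.91 to 1.24, FDR 2.79e-15). From 2 to 6 hours the means lay within 0.09 of each other and no step between them passed the test. The highest mean of any probe set at 2 hours was 13.58, so Mmp8 stood near the top of the scale, where arrays can compress differences. Its SD was 0.29 at 0 hours and 0.07 to 0.11 from 1 to 6 hours. At 24 hours Mmp8 was still higher by 0.59 (FDR 3.17e-07), 54.8% of its largest log2 change.

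Pglyrp1, a bactericidal protein of the innate defence, went from 9.93 ± 0.29 at 0 hours to 10.86 ± 0.16, 11.52 ± 0.25, 11.18 ± 0.19 and 11.75 ± 0.22 at 1, 2, 3 and 6 hours and to 10.58 ± 0.33 at 24 hours. Its probe set lies at chr1:81052611-81057412 on the plus strand (rn5). The change was 1.58 at 2 hours (FDR 2.68e-15) and 1.81 at 6 hours (3.51-fold, interval 1.56 to 2.06, FDR 6.87e-17). As in Lcn2, the 3 hour mean was the lowest between these, with a fall of 0.34 from 2 hours (FDR 0.112) and a rise of 0.57 from 3 to 6 hours (FDR 0.00309). The 24 hour change of 0.64 (FDR 5.37e-05) was 35.5% of the largest log2 change.

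Ltf, the classical marker protein of specific granules, did not follow the other 5 genes of its class. Its means were 5.86 ± 0.14, 5.89 ± 0.09, 5.87 ± 0.11, 5.88 ± 0.10, 5.92 ± 0.18 and 5.89 ± 0.12 from 0 to 24 hours, and its probe set lies at chr8:118632768-118706965 on the plus strand (rn5). The largest change was 0.06 at 6 hours (interval -0.08 to 0.19, FDR 0.522), and the intervals at the other times ran from -0.12 to 0.16. The 0 hour mean lay between the first quartile (5.56) and the median (6.61) of all probe sets. The probe set also spans more bases than that of any other member, and how well it reads Ltf mRNA was not assessed. The sign of the Ltf changes turned in 9 of 10 cases when the means were centred on their median or quantile normalized, with values of no more than 0.07 in size.

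The steps between neighbouring time points placed these movements. From 1 to 2 hours, the step that spans reperfusion and the further anaesthesia, 3 of 6 specific and gelatinase genes (Camp, Mmp8 and Pglyrp1) rose further and 0 of 3 primary genes did by limma's test (none with an unadjusted p under 0.05), where 4.66% of all probe sets rose and 4.11% fell. From 2 to 3 hours, Camp fell, against 1.62% of all probe sets lower and 1.9% higher. From 3 to 6 hours, Lcn2 and Pglyrp1 rose, against 2.34% higher and 2.44% lower. From 6 to 24 hours, 5 of 6 specific and gelatinase genes and 1 of 3 primary genes (Elane) fell, against 8.68% lower and 10.2% higher.

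Between 6 and 24 hours Lcn2 fell by 2.70 (FDR 5.92e-11), Camp by 1.29 (FDR 1.60e-07), Pglyrp1 by 1.17 (FDR 2.53e-10), Ngp by 0.93 (FDR 0.00318) and Mmp8 by 0.41 (FDR 2.47e-04). Camp and Lcn2 then had intervals at 24 hours that include 0, Ngp lay below 0, and Mmp8 and Pglyrp1 lay above it. Whether these falls differ between genes was not tested.

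Among the primary granule genes the means moved by at most 1.27-fold. Elane had means of 6.55 ± 0.13, 6.79 ± 0.08, 6.79 ± 0.13, 6.81 ± 0.18, 6.89 ± 0.16 and 6.65 ± 0.09 from 0 to 24 hours, with a probe set at chr7:12808044-12809867 on the minus strand (rn5). The changes of 0.24, 0.24, 0.26 and 0.34 at 1, 2, 3 and 6 hours passed the test (FDR 0.00388, 0.00339, 0.00149 and 7.98e-05), and the fall of 0.24 from 6 to 24 hours did too (FDR 0.00887). These calls of Elane held in every alternative setting run.

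Mpo had means of 6.19 ± 0.10, 6.41 ± 0.13, 6.30 ± 0.05, 6.36 ± 0.15, 6.35 ± 0.14 and 6.31 ± 0.14, with a probe set at chr10:75004127-75014054 on the minus strand (rn5). It was higher by 0.22 at 1 hour (FDR 0.00491), 0.17 at 3 hours (FDR 0.0227) and 0.16 at 6 hours (FDR 0.0489). After quantile normalization of the means none of these passed (FDR 0.0664, 0.218 and 0.303), and after centring the 3 and 6 hour changes did not (FDR 0.0841 and 0.123). With the SDs of the compared time points only, the 6 hour change did not pass either (FDR 0.0662).

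Ctsg had means of 5.70 ± 0.09, 5.82 ± 0.07, 5.88 ± 0.14, 5.77 ± 0.10, 5.80 ± 0.09 and 5.80 ± 0.06, with a probe set at chr15:38997848-39008512 on the minus strand (rn5). It was higher by 0.13 at 1 hour (FDR 0.0480) and 0.18 at 2 hours (FDR 0.00391). The 1 hour call was lost after centring (FDR 0.258), after quantile normalization (FDR 0.532), with the SDs of the compared time points (FDR 0.0584) and without the 24 hour samples (FDR 0.0623), and the 2 hour call after quantile normalization (FDR 0.0923).

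The signals of Mpo, Elane, Ctsg and Ltf at 0 hours were below the median of all probe sets, 6.61. The table holds no detection call, so whether they stood above background was not assessed. Over all 6754 probe sets with a mean signal between those of Ctsg and Elane (5.80 to 6.75), the median change was 0.09, 0.08, 0.11, 0.09 and 0.08 at 1, 2, 3, 6 and 24 hours, and 26.6%, 26%, 34.4%, 28.2% and 20.5% were called higher. Several primary granule changes lay between the quartiles of these probe sets. These included the called changes of Ctsg at 1 hour (0.13, upper quartile 0.17) and of Mpo at 3 and 6 hours (0.17 and 0.16, upper quartiles 0.19 and 0.18), and the changes of Ctsg at 3, 6 and 24 hours and of Mpo at 2 and 24 hours, which were not called. Mpo at 1 hour (0.22) and Ctsg at 2 hours (0.18) lay above the upper quartile of 0.17, and Elane lay above their upper quartile, 0.17 to 0.19, from 1 to 6 hours.

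Over the whole time course, the moderated F-test put 5 of 9 genes below the threshold of the study's methods (p of 5e-07), where 13.5% of all probe sets were. These were Pglyrp1 (p 4.55e-19, rank 318 of all probe sets), Camp (p 1.26e-17, rank 415), Mmp8 (p 2.13e-17, rank 432), Lcn2 (p 8.84e-14, rank 890) and Ngp (p 1.56e-10, rank 1712). At an FDR under 0.05, which 55.5% of all probe sets met, Elane (FDR 4.00e-04) and Mpo (FDR 0.0470) were added. Ctsg (FDR 0.0521) and Ltf (FDR 0.974) were not.

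The other genes of each granule class were taken from fixed lists, in which a gene counts as measured where a probe set carried its symbol. The counts of these lists and of the marker lists stand beside 21.7%, 21.7%, 27.3%, 22.5% and 17.4% of all probe sets called higher at 1, 2, 3, 6 and 24 hours, and 15.4%, 18.6%, 19.2%, 19.3% and 13.9% called lower. Of 10 measured other primary granule genes, 4, 4, 4, 5 and 4 were higher and 1, 2, 0, 1 and 1 lower at 1, 2, 3, 6 and 24 hours, with medians of 0.09, 0.07, 0.12, 0.18 and 0.08. The largest mover was Cd63, a tetraspanin of primary granule and lysosome membranes in many cell types, at 1.72 at 2 hours and 1.92 at 6 hours. Prtn3 (proteinase 3, made alongside Elane) had changes between -0.06 and 0.04, none called. Bpi (which binds endotoxin) was higher by 0.24 to 0.42 from 1 to 6 hours, and Lyz2 (lysozyme, also in specific granules and monocytes) by 0.13 to 0.30. The 0 hour mean of Bpi, 5.08, was below the first quartile of all probe sets, 5.56. The defensin probe sets of Np4, Defa10 and Defa11 come from near-identical genes and are uncertain. With Cd63 they make up the 4 genes called higher at 24 hours. RatNP-3b had no probe set by that symbol.

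Of 11 other specific granule genes, 7, 9, 8, 9 and 6 were higher and 1, 1, 0, 1 and 1 lower, with medians of 0.61, 1.33, 0.89, 1.32 and 0.36. Hp (haptoglobin, which binds free haemoglobin) changed by 2.49 at 2 hours and 3.47 at 6 hours, and Olfm4 (olfactomedin 4, found in a subset of neutrophils) by 2.47 and 3.24. Slpi (an inhibitor of elastase and cathepsin G) changed by 1.55 and 2.77, Cd177 (a surface receptor stored in specific granules) by 1.75 and 1.83, and Chi3l1 (a chitinase-like protein) by 1.45 and 1.60. Cybb, the catalytic subunit of the phagocyte oxidase, which monocytes and B cells express as well, was lower by -0.58 at 2 hours and -0.37 at 6 hours.

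Of 9 measured gelatinase granule genes, 5, 6, 6, 6 and 5 were higher and 1, 0, 1, 1 and 0 lower, with medians of 0.40, 0.66, 0.46, 0.82 and 0.38. Mmp9 (gelatinase B) changed by 2.06 at 1 hour and 2.75 at 2 hours, and Mmp25 (a membrane-anchored metalloprotease of leukocytes) by 2.33 at 2 hours and 2.70 at 6 hours. Fcnb (a ficolin, which binds sugars on microbes) was lower by -0.43 at 1 hour and higher by 0.37 at 3 hours. Itgb2 (the shared beta chain of the leukocyte integrins) was lower by -0.30 and -0.23 at 3 and 6 hours. Of 6 secretory vesicle genes, 2, 3, 5, 5 and 3 were higher and 1 (Fcgr3a) was lower at every time, with medians of 0.19, 0.76, 0.69, 0.67 and 0.22. At 2 hours Fpr1 (the formyl peptide receptor) changed by 2.80 and Fcgr3a (an Fc receptor that NK cells and monocytes also carry) by -0.99. Cd14 (a co-receptor for endotoxin, abundant on monocytes) was higher by 1.38, 1.84 and 1.34 at 2, 3 and 6 hours.

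**Figure D3:**
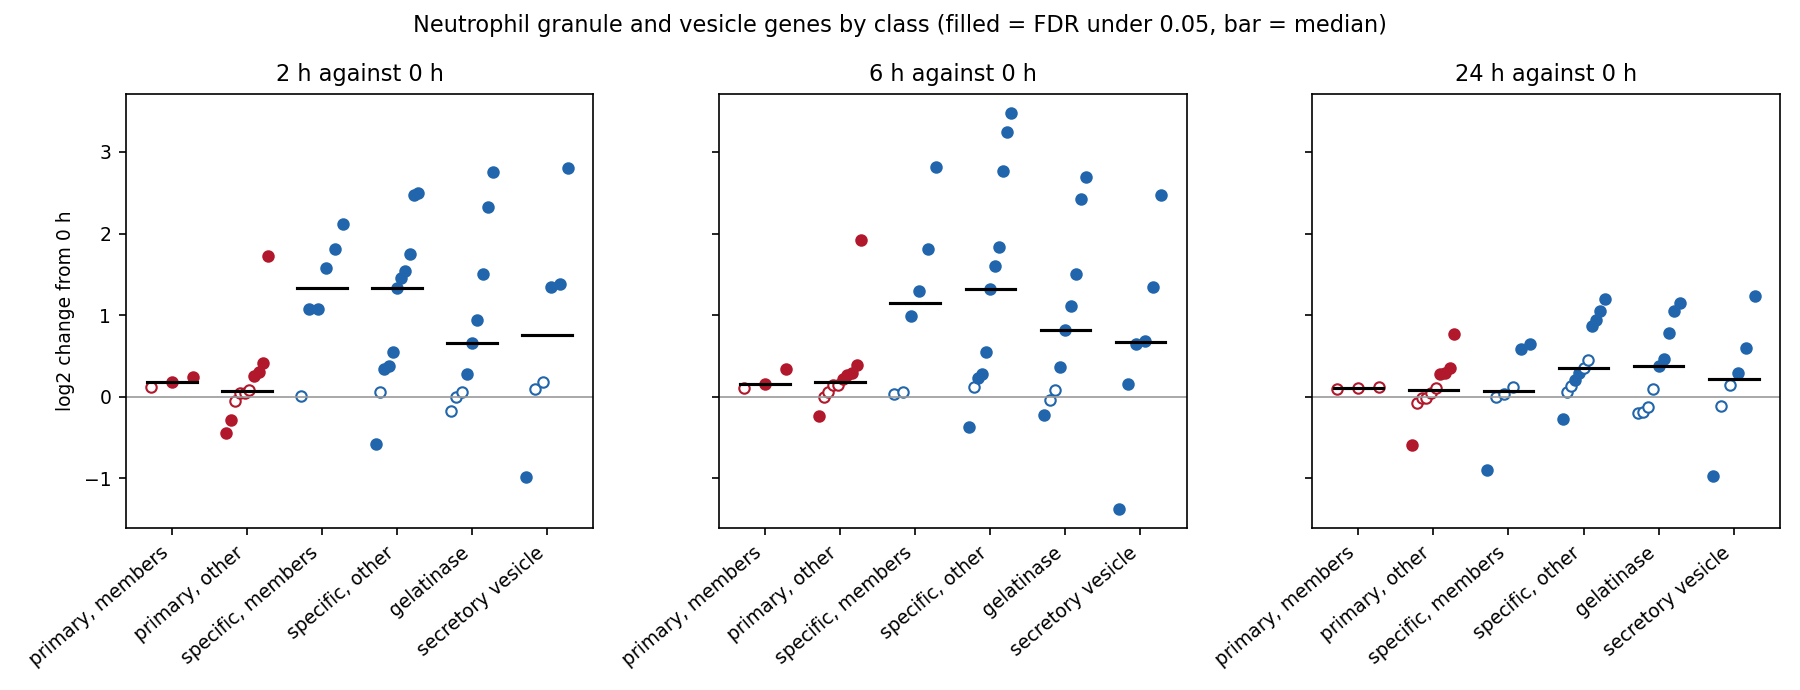
Change from 0 hours (y axis, log2 scale) of every measured gene of 6 granule and vesicle lists at 2, 6 and 24 hours, red for primary granule and blue for later granule or vesicle genes; filled points have an FDR under 0.05 and the bar is the list's median. The primary lists have medians of 0.07 to 0.18 at 2 and 6 hours, with Cd63 as the high point at 1.72 and 1.92, and the other lists have medians of 0.66 to 1.33.

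Genes that act on granule proteins were read in the same way. Of 5 measured transcription factors of granule genes, 1, 2, 2, 2 and 1 were higher and 1, 0, 0, 0 and 1 lower (Runx1). These are too few genes to set against the shares of all probe sets. Cebpa, which drives early granulocyte genes, was higher by 0.26 to 0.42 at all times, and Spi1 (PU.1) by 0.27, 0.42 and 0.68 at 2, 3 and 6 hours. The 0 hour mean of Cebpa, 6.40, lay in the signal range of 5.80 to 6.75, where 20.5% to 34.4% of probe sets were called higher. Cebpe, which drives specific granule genes, had changes between -0.07 and 0.06, none called, and Gfi1, a repressor needed for neutrophil formation, had changes between -0.12 and 0.11, none called.

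Of 7 storage and processing genes, 3, 3, 3, 4 and 3 were higher and none lower. Ctsc (cathepsin C, which activates Elane, Ctsg and Prtn3) changed by 0.96, 1.49, 1.41, 1.14 and 0.27, all called, and Srgn (serglycin, the proteoglycan that packs granule proteins) by 0.28, 0.43, 0.35 and 0.61 from 1 to 6 hours. Of 8 measured genes of granule release, 4, 5, 5, 3 and 4 were higher and 0, 0, 0, 1 and 1 lower. Stxbp2, a partner of syntaxins in degranulation, changed by 0.50 to 0.92, called at all times. Of 5 protease inhibitors, 2, 4, 4, 4 and 2 were higher and none lower. Serpinb1a, which inhibits Elane, Ctsg and Prtn3 inside the cell, changed by 1.64, 2.71 and 3.50 at 2, 3 and 6 hours and by 1.41 at 24 hours.

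Marker genes of the cells in blood moved over the same times. Of 8 mature neutrophil genes, 7 were higher at 1 hour (Ncf1 was not called) and all 8 from 2 to 24 hours, with medians of 0.76, 1.23, 1.09, 1.35 and 0.56. Their summed signal on the linear scale went from 14410 at 0 hours to 22064, 29056, 28318 and 33750 and to 20924 at 24 hours. That of the 6 specific and gelatinase members went from 8178 to 15220, 19049, 15655 and 17743 and to 10305, and that of the 3 primary members from 219 to 253, 249, 249, 256 and 236. Csf3r (the G-CSF receptor), Cxcr2 (a chemokine receptor) and S100a8 (a subunit of calprotectin) were still higher by 0.88, 0.82 and 0.71 at 24 hours. The changes of Camp and Lcn2 were then -0.00068 and 0.12, neither called, and Ngp was lower by -0.90.

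Of 6 cycling and progenitor genes, 3, 1, 3, 0 and 1 were higher and none lower, with medians of 0.12, 0.07, 0.16, -0.05 and 0.14. The signal sum went from 1810 at 0 hours to 2261, 1910, 2054, 1722 and 2205. Mki67, a marker of dividing cells, was higher by 0.41 at 1 hour, 0.23 at 3 hours and 0.38 at 24 hours. The part that mature or immature neutrophils have in the granule changes was not tested.

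Markers of other white cells were mostly lower. All 6 T cell markers were lower at every time, with medians of -0.45, -0.90, -1.06, -1.19 and -0.72, and a summed signal of 7395 at 0 hours and 3192 at 6 hours. Of 6 B cell markers, 5, 6, 5, 5 and 5 were lower (Pax5 only at 2 hours), with medians of -1.50, -2.00, -2.07, -1.76 and -0.63 and a sum of 5837 at 0 hours and 1648 at 2 hours. Of 5 NK cell markers, 1, 3, 3, 4 and 4 were lower and 1, 1, 0, 1 and 0 higher (Ncr1), with a sum between 5411 at 1 hour and 2955 at 24 hours, and the Gzmb probe set also covers related granzyme genes. Of 5 monocyte markers, 5, 3, 3, 3 and 3 were lower, though Ccr2 was higher by 0.40 to 0.68 from 2 to 6 hours, with a sum between 5729 and 8600.

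Platelet markers (5 genes, summed signal 17614 to 20040) had 0 to 3 higher and none lower, and erythroid markers (6 genes, 47102 to 51986) had at most 1 higher and 2 lower. Eosinophil, basophil and mast cell markers (5 genes, 291 to 366) had at most 1 higher and 2 lower. RMA signals have no true zero, so no marker was at 0. The part of these shifts in the granule gene changes was not tested.

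**Figure D4:**
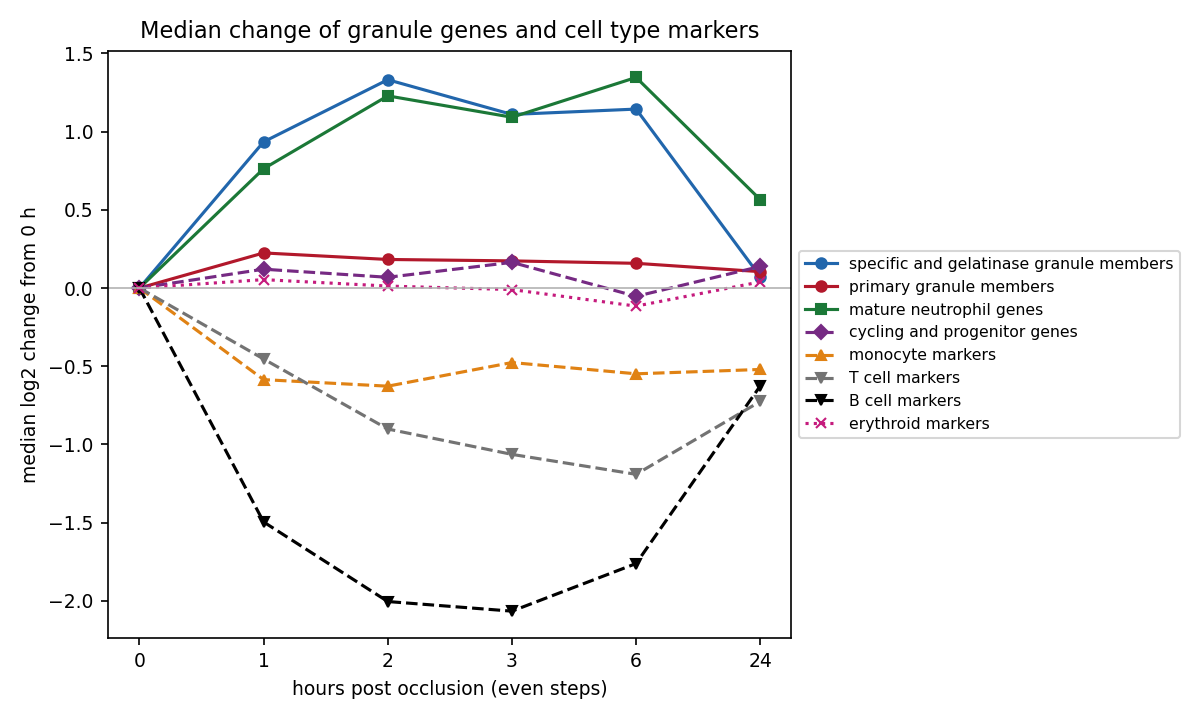
Median change from 0 hours (y axis, log2 scale; x axis, hours post occlusion with even spacing) of the 2 granule classes and of marker lists for cells of the blood, 1 line per list. The specific and gelatinase genes and the mature neutrophil genes had medians of 1.33 and 1.23 at 2 hours, and at 24 hours stood at 0.07 and 0.56; the primary granule genes stayed at 0.10 to 0.22.

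The genes with the most similar course were found by the root mean square (RMS) difference of their 5 changes from the class median, over the authors' means at 6 time points. For the specific and gelatinase class these were Soat1, Ano10, Slco4c1, Dusp1 and Braf, with RMS differences of 0.06 to 0.15. The members themselves differed from their own class median by 0.28 (Mmp8) to 0.99 (Ltf). For the primary class the nearest were Wnt10b, Flywch1, F13b, Paqr4 and Csrnp3, at 0.01, against 0.03 (Mpo) to 0.10 (Elane) for its own members. Both lists hold the smallest differences found, so that they lie closer than the members follows from the choice.

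When the 6 time points of a gene were ordered by the level of its mean, from high to low, rather than by time, each gene had neighbours in that order that could not be separated. In Camp, the 2 hour mean stood above the 3 hour mean, 3, 1 and 6 hours were not separated, and 6 hours stood above 0 hours (FDR 5.81e-08). In Lcn2, 6 hours stood above 2 hours, 2, 1 and 3 hours were not separated, and 3 hours stood above 24 hours (FDR 0.00161). In Pglyrp1, Mmp8 and Ngp, no pair next to each other by level was separated except 24 hours above 0 hours (Pglyrp1 FDR 5.37e-05, Mmp8 FDR 3.17e-07) and 0 hours above 24 hours (Ngp). In Mpo, Elane, Ctsg and Ltf, no pair next to each other by level passed the test.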

How the data were processed

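Blood mRNA was measured on Affymetrix GeneChip rat gene arrays, 47 in all. The authors summarized each array by RMA and deposited 1 table of 27596 probe sets with log2 values per array, the authors' log2 mean and SD per time point, and symbols (for 21406 probe sets) and positions on rn5. The submitters' processing notes name limma without a version. Here only the means and SDs were used. The 47 columns of single arrays have names that match no sample's labels and were not used, nor were 19 columns of the authors' own comparisons (fold changes, p-values and FDRs).

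Each change is the difference of 2 deposited means. limma 3.58.1 (R 4.3.3) moderated the SDs, pooled over the 6 time points (41 residual degrees of freedom, prior 5.71), and p-values were Benjamini-Hochberg adjusted over all probe sets. The changes from 0 hours and the steps between neighbouring times were planned, and the other pairs of time points were added after the table was seen, to order the levels of a gene. The test takes arrays as independent, although the same 8 rats were sampled throughout, and the number of arrays limits its precision. On simulated data for 2 hours against 0 hours over 27596 probe sets, it called 13 of 50 changes of 0.25, 44 of 50 of 0.5, 49 of 50 of 1 and 50 of 50 of 2 (log2), and 3.7% of its calls were false. Far fewer probe sets were changed there than were called in the data, so these counts are not detection rates for the genes described.

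Genes were named by rule: all members, each by the probe set with the highest mean, the genes of fixed lists, and the 5 nearest profiles per class. The members and lists were chosen with earlier results of these data known. Promoter windows and motifs were chosen after the changes were known. Alternatives were an unmoderated test, an intensity trend with robust prior, median centring, quantile normalization of the means, leaving out the dimmest 25% of probe sets, SDs of the compared time points only, and leaving out the 24 hour samples.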

Additional observations from a re-analysis of the deposited data

How the results depend on the processing

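Under the alternatives run, the number of the 9 genes called stayed within 1.5 times at each time point and step, except that the step from 2 to 3 hours had 2 called genes in place of 1 with the SDs of the compared time points only, since Ngp (-0.64) was added. In that setting 737 probe sets were called from 3 to 6 hours, against 1319. The total over the 9 genes hides the primary class: after quantile normalization Elane was the only primary gene called at 1, 2, 3 and 6 hours. The median difference between the classes (0.71, 1.15, 0.94 and 0.99 from 1 to 6 hours) became 0.95, 0.67 and 0.52 at 1, 3 and 6 hours with Mmp8 and Pglyrp1 left out, and 0.73 at 3 hours with means in place of medians. At 24 hours it turned from -0.03 to 0.098 after quantile normalization. Centring turned the sign of Elane (0.018, 1 to 2 hours), Ctsg (-0.0086, 6 to 24 hours) and Ltf (-0.023, -0.023, -0.014 and -0.012 at 1, 2, 3 and 24 hours, and 0.00035 from 1 to 2 hours). Quantile normalization turned Elane (0.028, 1 to 2 hours), Ctsg (-0.023 at 3 hours), Camp (0.083 at 24 hours) and Ltf (-0.053, -0.066, -0.069, -0.026 and -0.042 at 1, 2, 3, 6 and 24 hours, and -0.0030 from 2 to 3 hours). None of these turned values was called, and the cause was not tested.

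No paired analysis was possible because the columns of single arrays are named by a running number that no label ties to a rat or time point, and matching them by order was not done, so no fit with the rat as a block, no leaving out of single rats and no other background correction was run. No member has a further probe set, so that alternative was not run either. A primary gene that was not called is not shown to be unchanged.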
